A study of Mus musculus with 15 samples.

Results

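The messenger RNA of 10 elastic fibre genes was followed in the left ventricle of mice after myocardial infarction. The genes were Eln, Fbn1, Fbn2, Fbln1, Fbln2, Fbln5, Efemp2, Mfap2, Mfap4 and Mfap5, each found by its symbol in 1 row of a count table of 47069 genes. The rule that finds the rows uses symbols alone, but the list of genes was chosen with earlier results of these data known. RNA of the left ventricle of C57BL/6 mice was measured in 15 libraries, 5 in each of 3 groups, described in the series as biological replicates and named as hearts here. In the PBS and rHCI groups the mice had an infarct, and 7 days later the heart muscle was injected with phosphate-buffered saline (PBS) or with rHCI, a hydrogel whose protein is human collagen type I made by recombinant means. The tissue of both groups was taken 2 days after the injection. The sham group had a sham operation and no treatment and was taken at a matched age of 10 weeks. The labels name no genetic alteration in any group. Because sham hearts had neither an infarct nor an injection, both cannot be told apart in comparisons with them. The labels mention no separation of scar from spared muscle before the ventricle was ground, and fewer cells of a type and less RNA per cell cannot be told apart.

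Elastic fibres give arteries, lungs and skin their recoil. They are built in the extracellular space, where tropoelastin, the product of Eln, is deposited on a scaffold of fibrillin microfibrils and is cross-linked by lysyl oxidases. Fibulins and microfibril-associated proteins sit at the contact between elastin and the microfibril, and the microfibrils also hold growth factors of the TGF-beta family in a latent form. In the heart, elastic fibres are found in the coronary arteries, the valves, the endocardium and the interstitium, and elastin is also laid down in healing infarcts.

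Promoter windows of the 250 bases before a start site were examined for 6 of the 10 genes, among 32851 windows from RefSeq on GRCm38.p6. No window was found for Eln, Mfap4 or Mfap5, and Fbn2 was left out of this step. For 4 of the 6 genes the bases upstream of the annotated transcripts are shown, 5′ to 3′ on the strand of the gene. The bases just after the RefSeq start site were found in a GENCODE transcript of the gene for Mfap2 and Fbln1. For Fbln5 and Efemp2 they were found in none. Fbln5, Mfap2 and Efemp2 are 3 of the 6 genes whose levels followed those of Eln across the infarcted hearts, and Fbln1 is one whose levels did not pass that test. Capitals mark matches on either strand to the GC box GGGCGG, the CCAAT box, the SMAD box CAGAC and the TEAD site CATTCC.
Fbln5, chr12:101819120-101819369, minus strand: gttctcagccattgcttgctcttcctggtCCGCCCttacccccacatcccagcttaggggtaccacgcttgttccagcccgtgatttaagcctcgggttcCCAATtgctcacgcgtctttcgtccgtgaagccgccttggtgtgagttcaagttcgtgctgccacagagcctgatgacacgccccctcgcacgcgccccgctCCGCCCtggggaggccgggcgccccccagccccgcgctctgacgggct
Mfap2, chr4:141010174-141010417, plus strand: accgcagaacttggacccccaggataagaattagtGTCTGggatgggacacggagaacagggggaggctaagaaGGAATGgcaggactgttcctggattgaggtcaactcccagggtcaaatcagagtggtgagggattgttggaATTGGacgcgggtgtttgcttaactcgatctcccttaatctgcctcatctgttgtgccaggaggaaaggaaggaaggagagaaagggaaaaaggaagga
Efemp2, chr19:5473696-5473945, plus strand: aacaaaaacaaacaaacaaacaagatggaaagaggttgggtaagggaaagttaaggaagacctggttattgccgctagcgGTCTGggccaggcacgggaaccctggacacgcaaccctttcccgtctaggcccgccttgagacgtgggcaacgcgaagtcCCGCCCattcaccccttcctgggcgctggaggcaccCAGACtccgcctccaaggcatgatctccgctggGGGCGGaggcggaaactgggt
Fbln1, chr15:85205699-85205948, plus strand: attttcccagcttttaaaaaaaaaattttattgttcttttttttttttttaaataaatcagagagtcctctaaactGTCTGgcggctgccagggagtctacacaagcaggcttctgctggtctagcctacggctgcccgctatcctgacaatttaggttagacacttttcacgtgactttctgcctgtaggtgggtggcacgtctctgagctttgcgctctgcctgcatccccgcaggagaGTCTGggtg
The Fbln5 window held 2 GC boxes and 1 CCAAT, the Mfap2 window 1 CCAAT, 1 SMAD box and 1 TEAD site, the Efemp2 window 2 GC boxes and 2 SMAD boxes, and the Fbln1 window 2 SMAD boxes. Of all 32851 windows, 32.7% held a GC box, 33.8% a CCAAT, 42.2% a SMAD box and 12.6% a TEAD site, so these letters are common. The 4 windows shown shared none of the 4 motifs throughout. Other windows of the same genes, not shown, held 2 SMAD boxes for Fbln5 and 2 GC boxes for Mfap2. They held 5 GC boxes each for Efemp2, in windows that overlap each other, and 1 GC box and 2 SMAD boxes for Fbln1. That Fbln1 window overlaps the one shown, and its 2 SMAD boxes are the same 2 marked above. With these, each of the 4 genes had a GC box and a SMAD box in some window. The letters TATAAA (12.4% of all windows) and TGACTCA (4.46%) were in none of the 4 windows shown.

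The genes lie on 10 loci of the GRCm38 genome, each protein-coding in GENCODE M21, and no exon of a member was shared with a gene on the same strand. Eln (ENSMUSG00000029675) spans chromosome 5, 134702593 to 134747323, on the minus strand with 37 exons in its longest transcript. The fibrillin genes are long, with 65 exons each: Fbn1 (ENSMUSG00000027204) at chromosome 2, 125300594 to 125507993, and Fbn2 (ENSMUSG00000024598) at chromosome 18, 58008623 to 58210487. The fibulin genes are Fbln1 (ENSMUSG00000006369; chromosome 15, 85205949 to 85286535), Fbln2 (ENSMUSG00000064080; chromosome 6, 91212455 to 91272540), Fbln5 (ENSMUSG00000021186; chromosome 12, 101746565 to 101819055) and Efemp2, which encodes fibulin-4 (ENSMUSG00000024909; chromosome 19, 5473954 to 5482517). The genes of the small microfibril-associated proteins are Mfap2 (ENSMUSG00000060572; chromosome 4, 141010418 to 141015984), Mfap4 (ENSMUSG00000042436; chromosome 11, 61485431 to 61488900) and Mfap5 (ENSMUSG00000030116; chromosome 6, 122505845 to 122529290). Exons of Eln share 267 bases with Gm30003 on the other strand. Exons of Fbn1 share 2442 bases with Gm9913 on the other strand and those of Fbn2 share 129 bases with Gm26507, and both partners had group means of at most 0.762 CPM.

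Library totals ran from 32978702 to 103356830 counts, and the smallest count of a member in any library was 125. Values are given in CPM, the count of a gene relative to a common library size set by the TMM method. Muscle markers matched the labelled tissue. The summed level of 7 cardiomyocyte genes, Myh6 and Ttn among them, was 65199 ± 2959.8 CPM (SD, n = 5) in sham, 37395 ± 5514 CPM in PBS and 42621 ± 6589 CPM in rHCI hearts. That of 7 fibroblast genes was 2223 ± 102, 7109 ± 778 and 6192 ± 979 CPM. Col1a2, 1 of these 7, went from 189 ± 20.6 CPM in sham to 4290 ± 716 CPM in PBS hearts, most of the rise of the sum. The 6 lung genes summed to 71.7 CPM in 1 library, PBS 6, and to at most 0.653 CPM in the other 14, and 5 liver genes summed to at most 0.553 CPM in any library. The level of Eln in PBS 6 lay inside the range of the other PBS libraries, and its log2 fold change against sham without PBS 6 was 5.27. The descriptions carry a number that 12 libraries share and that PBS 6, rHCI 1 and Sham 19 do not, and its meaning is not stated.

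Eln, the gene of tropoelastin, the elastic core of the fibre, had the largest fold change of the 10 genes in PBS hearts. Its level was 75.7, 79.2, 98.9, 93.7 and 53.1 CPM in Sham 16, 17, 18, 19 and 20. It was 3234, 3234, 3827, 3180.2 and 2091 CPM in PBS 2, 6, 9, 12 and 14. In rHCI 1, 3, 7, 11 and 13 it was 1635, 3334, 2829, 1757 and 1469 CPM. Every infarcted heart was far above every sham heart, 1 PBS heart (PBS 14) was below the other 4, and of the rHCI hearts rHCI 3 and rHCI 7 were high and the other 3 low. Against sham, Eln was 38.8-fold higher in PBS hearts, a log2 fold change of 5.28 ± 0.20 (SE, adjusted p = 3.83e-10, edgeR's quasi-likelihood test over 16207 genes). That was the 62nd largest rise of all genes tested.

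**Figure D1:**
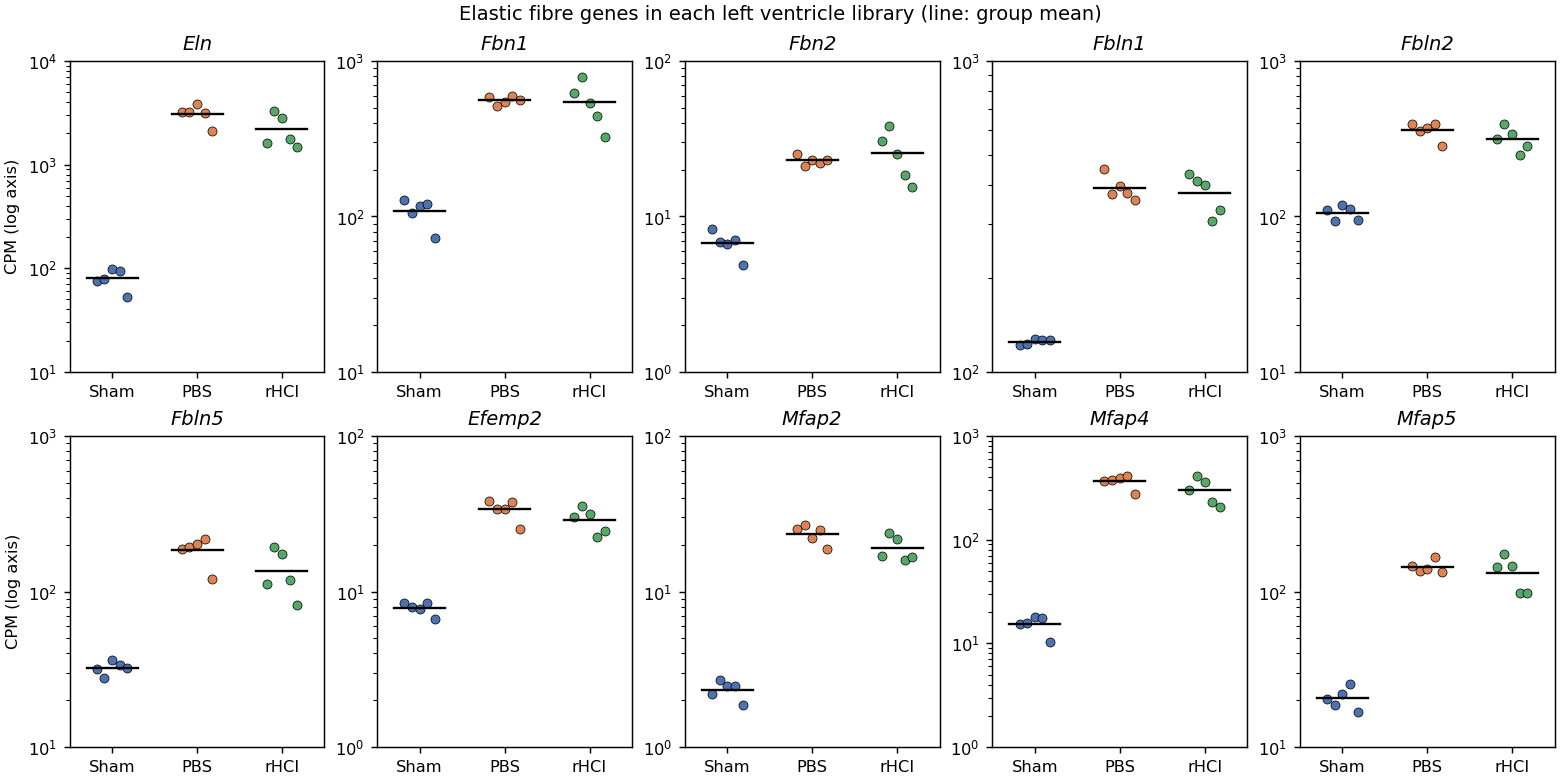
CPM of each elastic fibre gene (log axis) in every library of the Sham, PBS and rHCI groups, with points for libraries and lines for group means. All 10 PBS and rHCI points lie above all 5 Sham points in each of the 10 panels, while PBS and rHCI points overlap in each.

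All 10 members rose in PBS hearts, and in none did the groups overlap. Among all genes tested, 36.5% were called higher in this comparison, 34.9% lower, and 31.6% were higher without overlap, so a call alone is common here. The members' median log2 fold change was 2.44 and that of all genes −0.01. Because the members were chosen with earlier results of these data known, this is a description and no test of the set. The folds spread widely within the fibre, from 3.12-fold for Fbln1 to 38.8-fold for Eln, and the order ran from the elastic core and the small microfibril-associated proteins down to the fibrillins and fibulins.

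The microfibril-associated proteins came next after Eln in fold change. Mfap4, a ligand of integrins and elastin at the surface of the fibre, was at 15.5, 15.7, 17.8, 17.7 and 10.3 CPM in the sham hearts, in the order above. Its PBS values were 372, 379, 392, 412 and 279 CPM. Its rHCI values were 299, 417, 362, 232 and 206 CPM. The pattern was that of Eln, with Sham 20 and PBS 14 lowest in their groups and rHCI 3 highest in its own. The log2 fold change of Mfap4 in PBS against sham hearts was 4.58 ± 0.16 (adjusted p = 2.01e-10), or 23.9-fold. Of its exons, 89 bases overlap Mapk7 on the other strand, which was at 7.56 ± 0.253 CPM in sham and 16.1 ± 1.57 CPM in PBS hearts, and the strand setting of the counting is not given in the sources used here.

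Mfap2 and Mfap5 encode the microfibril-associated glycoproteins MAGP-1 and MAGP-2, which bind the fibrillins directly. Mfap2 was among the least abundant members of sham hearts, at 1.85 to 2.70 CPM with a median of 2.46. It was at 18.9 to 26.6 CPM (median 25.0) in PBS and 15.9 to 23.8 CPM (median 16.95) in rHCI hearts. Its rise in PBS hearts was 10.2-fold, with a log2 fold change of 3.35 ± 0.12 (adjusted p = 2.13e-10). Mfap5 started higher, at 20.4, 18.5, 21.9, 25.5 and 16.7 CPM in the 5 sham hearts. It reached 146, 135, 139, 166 and 133 CPM in the PBS hearts and 144, 175, 145, 97.3 and 98.1 CPM in the rHCI hearts. Its log2 fold change of 2.80 ± 0.11 (adjusted p = 2.96e-10) was smaller than that of Mfap2.

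The fibrillins, which form the backbone of the microfibril, had smaller fold changes than Mfap2, Mfap4 and Mfap5. Fbn1, the main fibrillin of adult tissue, was at 127, 105, 117, 121 and 72.4 CPM in the sham hearts. The PBS hearts had 587, 518, 547, 597 and 560.0 CPM and the rHCI hearts 620.4, 785, 541, 446 and 326 CPM. The PBS values lay close together, with a coefficient of variation of 5.70%, and the rHCI values spread around them with 32.0%. In PBS against sham hearts the log2 fold change of Fbn1 was 2.37 ± 0.13 (adjusted p = 4.17e-09), or 5.17-fold. Fbn2, a fibrillin best known from development, was at 8.30, 6.90, 6.69, 7.10 and 4.85 CPM in sham hearts. It was at 25.1, 21.1, 23.3, 22.2 and 23.1 CPM in PBS hearts and at 30.8, 38.3, 25.4, 18.4 and 15.5 CPM in rHCI hearts. As with Fbn1, rHCI 1 and rHCI 3 lay above all 5 PBS hearts and rHCI 11 and rHCI 13 below all 5. The log2 fold change of Fbn2 in PBS hearts was 1.76 ± 0.11 (adjusted p = 2.25e-08), or 3.39-fold.

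Among the fibulins, Fbln5 and Efemp2, whose products bring elastin and lysyl oxidase to the microfibril and are needed for elastic fibres to form, had larger fold changes than Fbln1 and Fbln2. Fbln5 was at 31.9, 27.8, 36.0, 33.5 and 32.3 CPM in sham hearts. It was at 188, 194, 202, 218 and 121 CPM in PBS hearts and 112, 193, 174, 118 and 81.8 CPM in rHCI hearts. PBS 14 was again below the other PBS hearts and next to the 3 low rHCI hearts, rHCI 1, 11 and 13. The log2 fold change in PBS hearts was 2.51 ± 0.14 for Fbln5 (adjusted p = 4.61e-09). Efemp2 rose from 7.83 ± 0.742 to 33.9 ± 5.17 CPM (SD, n = 5 in each), and its log2 fold change was 2.11 ± 0.11 (adjusted p = 3.34e-09). Its exons share 173 bases with Mus81 on the other strand, which was at 22.2 ± 1.06 CPM in sham and 17.8 ± 1.37 CPM in PBS hearts.

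Fbln1 and Fbln2, fibulins of basement membranes and of elastic fibres that bind several matrix proteins, were the most abundant members of sham hearts per length and had the smallest fold changes. Fbln1 was at 122, 123, 127, 126 and 127 CPM in sham hearts, the narrowest spread of any member in any group, with a coefficient of variation of 2.01%. It was at 451, 373, 396, 378 and 359 CPM in PBS and 432, 411, 399, 305 and 333 CPM in rHCI hearts, with both infarcted groups clear of sham. Its log2 fold change in PBS hearts was 1.64 ± 0.06 (adjusted p = 3.08e-10). Fbln2 rose from 106 ± 10.8 to 359 ± 45.9 CPM, a log2 fold change of 1.76 ± 0.10 (adjusted p = 5.43e-09).

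In rHCI hearts against the same sham hearts, all 10 members were also higher without overlap, where 34.1% of 16076 genes were called higher, 29.7% lower, and 27.1% were higher without overlap. The median log2 fold change of the members was 2.21, against 0.00 for all genes. Eln was at 2205 ± 826 CPM against 80.1 ± 17.9 CPM in sham hearts, a log2 fold change of 4.79 ± 0.27 (adjusted p = 4.93e-08), or 27.7-fold. Mfap4 followed with 4.31 ± 0.22, Mfap2 with 3.05 ± 0.14 and Mfap5 with 2.69 ± 0.17. The log2 fold changes were 2.33 ± 0.22 for Fbn1 and 1.93 ± 0.23 for Fbn2, the member with the largest adjusted p, 1.74e-05. Those of the fibulins were 2.08 ± 0.20 for Fbln5, 1.89 ± 0.12 for Efemp2, 1.60 ± 0.09 for Fbln1 and 1.59 ± 0.12 for Fbln2. This comparison and that of PBS hearts use the same 5 sham libraries, so the likeness of both lists of values is no independent result. All 20 calls against sham were kept in each of the other settings tried. Scaling by library totals alone moved the median log2 fold change of all genes by 0.27 in PBS and 0.22 in rHCI hearts, and the members stayed higher.

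Set against each other, rHCI and PBS hearts address whether the hydrogel changed the infarcted ventricle beyond the injection itself. None of the 10 members passed the test, nor did any of the 16383 genes (0% called), of which 579, or 3.53%, had an unadjusted p under 0.05. DESeq2 called 6 genes, none of them a member. The estimates of 9 members were below 0, as were those of 49.6% of all genes. This was not particular to the members: all 7 fibroblast genes and all 5 lysyl oxidases were below 0 too. All 7 cardiomyocyte genes were above 0, and endothelial genes were split, 3 and 3. The members were measured in the same hearts and are not independent counts. The groups overlapped for all 10 members, where 0.201% of all genes were higher and 0.299% lower without overlap. For Eln the log2 difference was −0.50 ± 0.24, with a 95% interval of −1.02 to 0.03 (edgeR, adjusted p = 0.871). The next estimates were −0.44 ± 0.23 for Fbln5 (interval −0.94 to 0.06, adjusted p = 0.871) and −0.31 ± 0.13 for Mfap2 (interval −0.60 to −0.03, the 1 interval without 0, adjusted p = 0.871).

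The remaining intervals all held 0. They were −0.68 to 0.13 for Mfap4, −0.53 to 0.08 for Efemp2, −0.46 to 0.10 for Fbln2 and −0.46 to 0.21 for Mfap5. The narrowest was that of Fbln1, −0.28 to 0.17, around an estimate of −0.06 ± 0.10. For the fibrillins, whose rHCI values lay on both sides of the PBS values, the intervals were −0.45 to 0.37 for Fbn1 and −0.28 to 0.62 for Fbn2. Fbn2 had the 1 estimate above 0, 0.17 ± 0.21. The estimate of Eln was −0.70 without rHCI 3 (adjusted p = 0.393) and −0.24 without rHCI 1 and rHCI 13 together, against −0.50 with all 10 hearts. The signs of the small estimates of Fbn1, Fbn2 and Fbln1 changed when 1 library was left out. A difference of 2-fold was recovered for 91% of genes so changed in simulated counts of this comparison. Many genes were changed at once there, which eases the adjusted threshold, while 0 of 16383 genes passed in the real hearts. The 91% therefore does not show that a 2-fold change of 1 member would have been called.

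**Figure D2:**
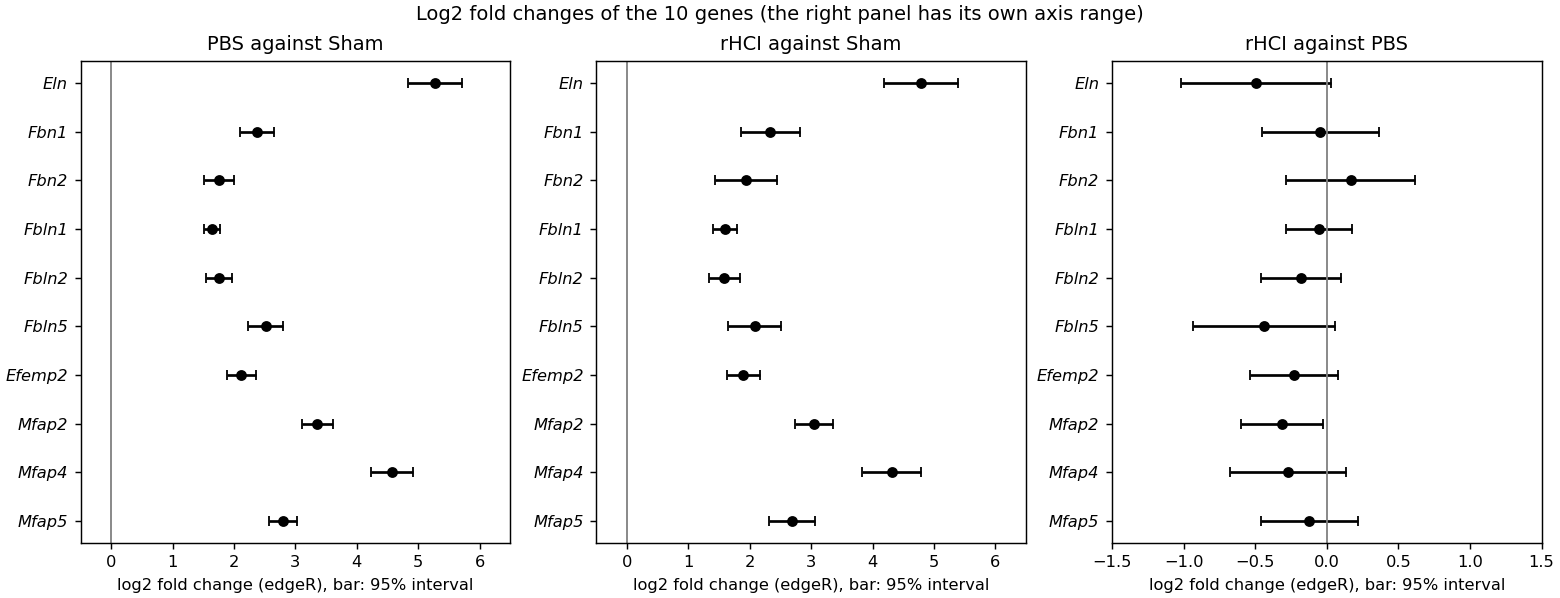
Log2 fold changes of the 10 genes with 95% intervals from edgeR in the comparisons of PBS with Sham, rHCI with Sham and rHCI with PBS (the last has its own axis range). All intervals against Sham lie above 0, from Fbln1 at 1.64 to Eln at 5.28 in PBS hearts, and those of rHCI against PBS hold 0 for every gene but Mfap2.

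The muscle marker sums differed between the infarcted hearts with low Eln and the others. Among the infarcted hearts, the 4 libraries with the least Eln, PBS 14 and rHCI 1, 11 and 13, were at 46362, 42989, 47379 and 50426 CPM in the summed cardiomyocyte markers. The other 6 were between 31635 and 38080.2 CPM. The low-Eln hearts therefore had the highest muscle marker sums. The 7 activated fibroblast genes include Postn, Cthrc1, Tnc and Acta2. They summed to 178 to 306 CPM in sham, 1888 to 2827 in PBS and 1446 to 2862 in rHCI hearts. In PBS hearts 6 of the 7 rose, and Acta2 did not pass (0.27 ± 0.17, edgeR, adjusted p = 0.173). Acta2 was most of the sham sum, at 179 ± 53.3 CPM in sham and 216 ± 22.1 CPM in PBS hearts. Postn was most of the PBS sum, at 32.1 ± 6.14 CPM in sham and 1570 ± 232 CPM in PBS hearts. Of the 7 fibroblast genes 6 rose and 1 fell (Gsn, −0.23, and 0.04 with library totals alone). Macrophage genes rose in 6 of 6, from 133 ± 13.1 to 373 ± 38.5 CPM in sum. Of all genes tested in PBS against sham hearts, 36.5% rose and 34.9% fell.

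Markers of smooth muscle cells, which make elastin in artery walls, did not show a common shift. Of 7 markers, 3 rose (Actg2, Tagln and Cnn1) and 2 fell (Myh11 and Des), where 36.5% of all genes rose and 34.9% fell. The sum was 2459 ± 131 CPM in sham and 2107 ± 93.3 CPM in PBS hearts. Most of that sum was Des, at 2171 ± 154 CPM in sham and 1800.5 ± 98.1 CPM in PBS hearts. The fall of the sum therefore followed Des and does not show the direction of the other markers. Which cells carried Des was not tested. With library totals alone the log2 fold change of Des was 0.00 in place of −0.27. The summed levels in sham and PBS hearts were 1419.6 ± 102 and 1103 ± 68.1 CPM for 5 pericyte genes, 801 ± 45.2 and 883 ± 43.3 CPM for 6 endothelial genes, and 74.4 ± 8.54 and 124 ± 12.2 CPM for 5 endocardial and valve genes. They were 21.8 ± 4.80 and 85.3 ± 24.7 CPM for 6 epicardial genes, 18.4 ± 7.13 and 356 ± 77.7 CPM for 5 cartilage genes, and 271 ± 58.9 and 3316 ± 605 CPM for 5 genes of the atria. Most of the cartilage sum was Comp, at 11.4 ± 4.95 CPM in sham and 287 ± 63.4 CPM in PBS hearts, though all 5 genes rose. The sum of the atrial genes was nearly all Nppa (249 ± 49.7 CPM in sham and 3226 ± 591 in PBS hearts, 12.9-fold), while Myl7, Sln and Myl4 rose 3.79-fold, 4.71-fold and 4.15-fold. Among the 5 pericyte genes 2 rose (Pdgfrb and Cspg4) and 2 fell (Abcc9 and Rgs5). Abcc9 went from 652 ± 68.0 CPM in sham to 303 ± 54.1 CPM in PBS hearts, which set the direction of the pericyte sum. The call of Rgs5 was lost with library totals alone, where it was 0.09 higher on the log2 scale. No defining gene of the fibroblast, smooth muscle, endothelial or macrophage lists was at 0 in any group. The part of these cell types in the levels of the elastic fibre genes was not tested.

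Per length of exon, Fbln1 was the most abundant elastic fibre transcript of sham hearts and Eln that of infarcted hearts. The CPM of a gene was divided by the length of all its exons in kb. In sham hearts Fbln1 led with 28.6 ± 0.576 CPM per kb, followed by Fbln2 with 16.6 ± 1.69, and both lay clear of the genes below. Eln (9.89 ± 2.21), Fbn1 (8.94 ± 1.78), Mfap4 (8.02 ± 1.58), Mfap5 (5.74 ± 0.938) and Fbln5 (4.67 ± 0.433) came next, each overlapping its neighbour in this order. Efemp2 (2.07 ± 0.196) and Mfap2 (1.93 ± 0.268) overlapped each other, and Fbn2 was lowest with 0.512 ± 0.0940. In PBS hearts Eln led with 384 ± 77.8 CPM per kb, then Mfap4 with 191 ± 26.8 and Fbln1 with 89.6 ± 8.26, each clear of the next. Fbln2, Fbn1 and Mfap5 followed with 56.3 ± 7.21, 46.3 ± 2.64 and 40.1 ± 3.70 and overlapped their neighbours. Fbln5 at 26.7 ± 5.42 overlapped Mfap2 at 19.5 ± 2.57, and Efemp2 (8.95 ± 1.36) and Fbn2 (1.74 ± 0.112) were last. In rHCI hearts the same gene led with 272 ± 102, overlapping Mfap4 at 158 ± 45.7. The order of the other 8 was as in PBS hearts, with each gene from Fbln2 to Fbln5 overlapping the next and Mfap2 clear of Efemp2. With the longest transcript of each gene as its length, Eln was at 20.8 ± 4.65 CPM per kb in sham, 808 ± 164 in PBS and 572 ± 214 in rHCI hearts. It then overlapped Fbln2 (22.1 ± 2.25) in sham hearts and was clear of Mfap4 in rHCI hearts, and Mfap5 came before Fbn1 in both infarcted groups.

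As a share of the summed CPM per kb of the 10 genes, Eln was 11.3 ± 1.63% (SD, n = 5) in sham, 44.1 ± 3.44% in PBS and 38.7 ± 4.70% in rHCI hearts. Mfap4 was 9.14%, 22.1% and 22.7%. Fbln1 went the other way, with 33.1%, 10.5% and 12.9%, although its own level had risen. Fbln2 was 19.1%, 6.54% and 7.36%, and Fbn1 10.2%, 5.46% and 6.47%. The share of Mfap2 was nearly level, at 2.22%, 2.27% and 2.32%. These are descriptions with no test, and the share of Eln depends on the length used: with the longest transcript of each gene it was 17.99%, 58.6% and 52.9%.

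**Figure D3:**
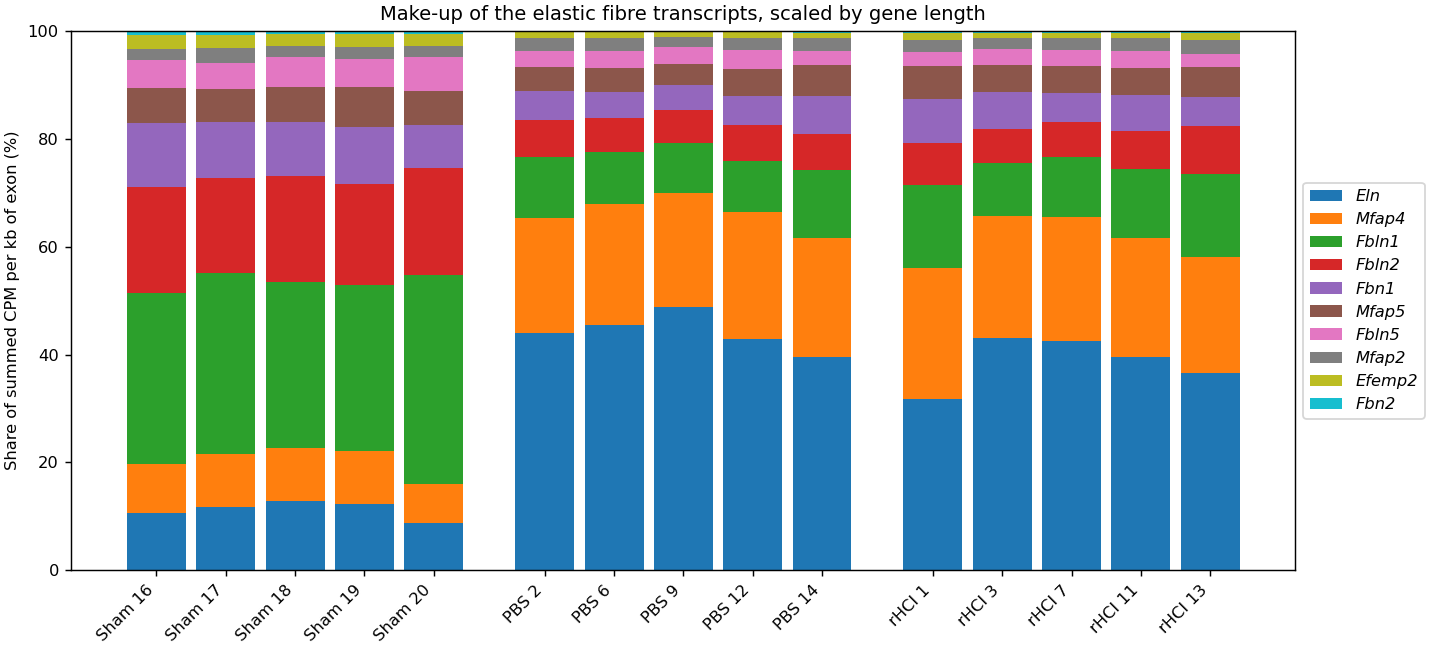
Share of each gene in the summed CPM per kb of exon of the 10 elastic fibre genes (percent), 1 bar per library. Eln (blue, at the base) makes up 8.76 to 12.9% in Sham, 39.5 to 48.9% in PBS and 31.7 to 43.0% in rHCI libraries.

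Ratios of 2 genes within a library do not depend on library scaling and were compared by 2-sided exact permutation tests of the log2 ratio, with p-values adjusted over 30 tests of 10 ratios. With 5 against 5 hearts the smallest p such a test can give is 0.00794. Eln rose against every member it was set against: its ratio to Fbn1 counts was 0.741 ± 0.0917 in sham, 5.56 ± 1.22 in PBS and 4.11 ± 0.954 in rHCI hearts, a log2 difference of 2.89 between PBS and sham (exact permutation test, adjusted p = 0.0265). Against Fbln5 the log2 difference was 2.79 and against Mfap4 0.70, each with no overlap and the same adjusted p by the exact test. Eln had the largest fold change of the 10 genes, so its rise against other members follows from it. These ratios restate the fold changes without library scaling and are no separate result. The ratio of Eln to Fbln5 counts was 16.95 ± 1.59 in PBS and 16.2 ± 1.49 in rHCI hearts, a log2 difference of −0.07 (exact permutation test, adjusted p = 0.476).

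In PBS hearts Eln also rose against the genes of the fibrillar collagens I and III. Col1a1, the gene of the main collagen I chain, went from 175 ± 24.3 CPM in sham to 4656 ± 789 CPM in PBS hearts, and Col3a1, that of collagen III, from 374 ± 57.6 CPM in sham to 7138 ± 1071 CPM in PBS hearts. The ratio of Eln to Col1a1 counts was 0.452 ± 0.0451 in sham and 0.666 ± 0.0441 in PBS hearts (log2 difference 0.56, exact permutation test, adjusted p = 0.0265), and the groups did not overlap. For Col3a1 the ratio was 0.213 ± 0.0334 and 0.435 ± 0.0513, a log2 difference of 1.03 with the same adjusted p by the exact test. In rHCI against sham hearts the difference for Col1a1 was 0.27 (exact permutation test, adjusted p = 0.181) and for Col3a1 0.70 (adjusted p = 0.034). Against Lox, the main elastin cross-linking enzyme, Eln did not gain: the ratio was 11.1 ± 1.83 in sham, 8.24 ± 0.900 in PBS and 7.30 ± 1.05 in rHCI hearts. The log2 difference was −0.41 in PBS (exact permutation test, adjusted p = 0.07) and −0.59 in rHCI hearts (adjusted p = 0.034).

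Of 4 pairs of related members, 3 differed in their ratio between PBS and sham hearts. The ratio of Fbn2 to Fbn1 counts was 0.0628 ± 0.00438 in sham, 0.0409 ± 0.00224 in PBS and 0.0469 ± 0.00331 in rHCI hearts. It fell by 0.62 on the log2 scale in PBS and by 0.42 in rHCI hearts against sham, without overlap in either (exact permutation test, adjusted p = 0.0265 each). Between rHCI and PBS hearts it differed by 0.20 (exact permutation test, p = 0.0317, adjusted p = 0.0635). The ratio of Mfap5 to Mfap2 fell from 8.89 ± 1.28 in sham to 6.15 ± 0.768 in PBS hearts, and that of Efemp2 to Fbln5 from 0.244 ± 0.0339 to 0.186 ± 0.0182 (exact permutation test, adjusted p = 0.034 for each). The ratio of Fbln1 to Fbln2 was 1.19 ± 0.120, 1.10 ± 0.114 and 1.20 ± 0.115, and its log2 difference of −0.11 between PBS and sham hearts did not pass the exact test (adjusted p = 0.256). In rHCI against PBS hearts 0 of the 10 ratios passed, and 14 of all 30 tests did.

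Some of these calls changed when 1 library was left out. The call for Mfap5 to Mfap2 in PBS against sham hearts was lost without PBS 2, 6, 9 or 12 (exact test, adjusted p = 0.0549 each). That for Efemp2 to Fbln5 was lost without Sham 16, 17 or 19 or PBS 2, 6, 9 or 12 (0.0549 to 0.0700). In rHCI against sham hearts the call for Eln to Mfap4 was lost without Sham 16, 17, 19 or 20, that for Eln to Col3a1 without those or rHCI 3, and that for Eln to Lox without rHCI 3 (0.0510 to 0.0794). Calls were gained for Fbn2 to Fbn1 in rHCI against PBS hearts without rHCI 11 (log2 difference 0.24, exact test, adjusted p = 0.0238), for Eln to Fbn1 without PBS 14 (−0.58, 0.0317) and for Eln to Col1a1 without rHCI 7 (−0.39, 0.0238). Without Sham 20, Eln to Lox passed in PBS against sham hearts (−0.52, 0.0198), and without Sham 17 or rHCI 1, Mfap5 to Mfap2 passed in rHCI against sham hearts (−0.45, 0.0397 and −0.44, 0.0476).

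**Figure D4:**
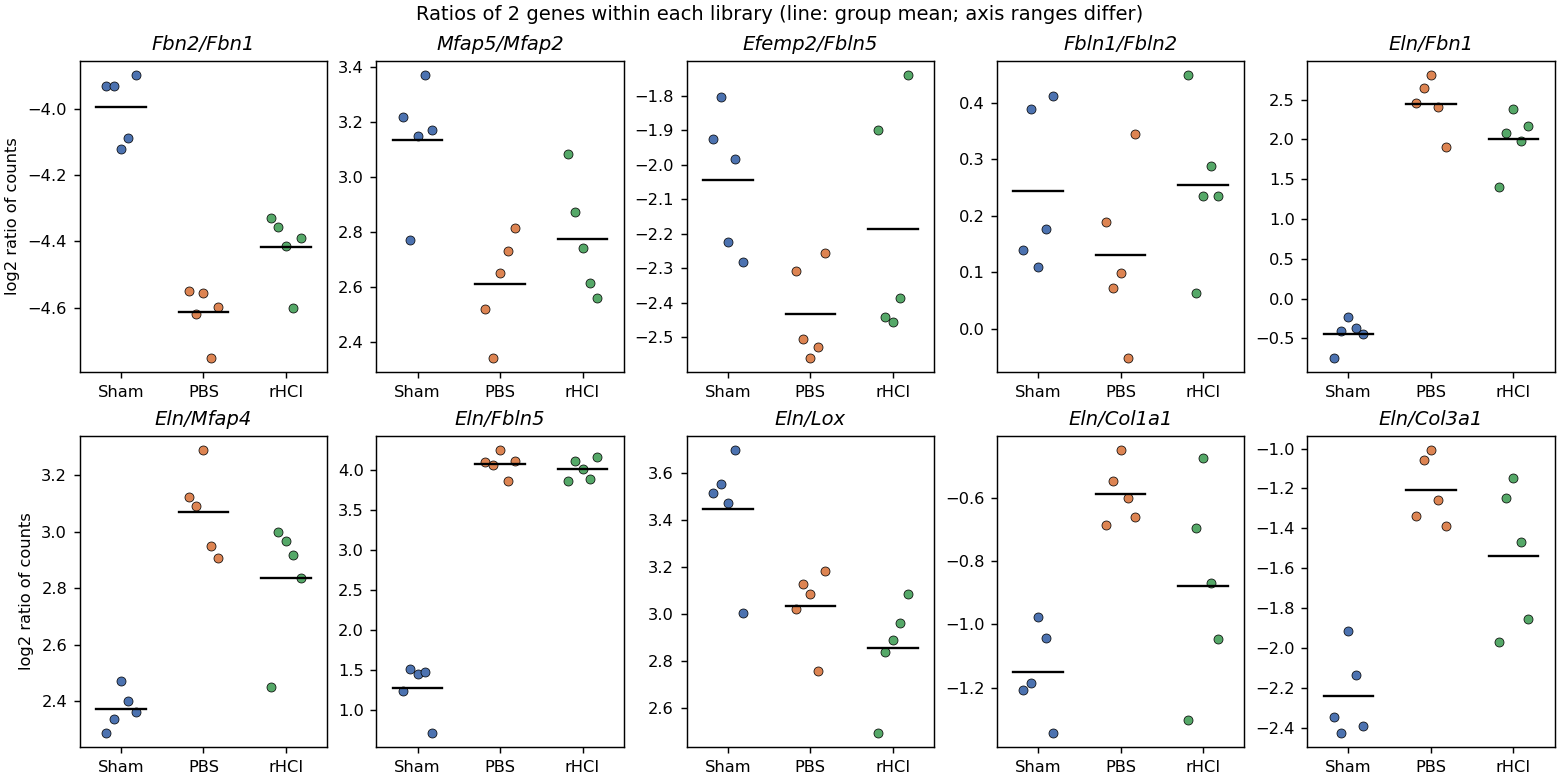
Log2 ratio of the counts of 2 genes within each library (vertical axis, ranges differ between panels) for the Sham, PBS and rHCI groups, with points for libraries and lines for group means. Eln/Fbn1 and Eln/Fbln5 show the widest separation from Sham, 2.89 and 2.79 for PBS, while Fbn2/Fbn1 lies lower in PBS than in Sham hearts by 0.62.

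Across the 10 infarcted hearts, each other member was compared with Eln. A high r with Eln was common in these hearts. Among 10486 genes with a mean of at least 5 CPM, r ranked Fbln5 10th, Efemp2 810th and Mfap5 1957th. How many of all genes would pass the test below was not counted. Pearson's r of log2 CPM with Eln was 0.96 for Fbln5 (rho 0.87, adjusted p = 5.40e-04 by a permutation test, over 9 members). It was 0.92 for Mfap4 (rho 0.87, permutation test, adjusted p = 0.0027) and 0.91 for Mfap2 (rho 0.77, adjusted p = 0.00276). It was 0.85 for Fbln2, 0.84 for Efemp2 and 0.71 for Mfap5, with permutation adjusted p of 0.00684, 0.00711 and 0.0322 and rho of 0.75, 0.75 and 0.53. The adjusted p of rho for Mfap5 was 0.189, so its relation was not called by rank. The fibrillins and Fbln1 did not pass: r was 0.58 for Fbn1, 0.51 for Fbln1 and 0.40 for Fbn2 (permutation test, adjusted p = 0.0863, 0.152 and 0.257; rho 0.33, 0.38 and 0.36). Whether r differs between members was not tested.

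With the values centred within each group, so that PBS and rHCI means are equal, the r of the 6 members that passed ran from 0.69 for Mfap5 to 0.95 for Fbln5, and each passed. By rank Efemp2 and Mfap5 did not pass there (permutation test of rho, adjusted p = 0.0713 and 0.101). Without rHCI 13 and rHCI 1, the hearts farthest from the median of Eln, r was 0.95 for Fbln5, 0.95 for Mfap4, 0.94 for Fbln2, 0.93 for Efemp2, 0.87 for Mfap2 and 0.75 for Mfap5. Fbln1 then passed with 0.79 (permutation test over 8 hearts, adjusted p = 0.0245), while Fbn1 was at 0.54 and Fbn2 at 0.47. By rank 0 of the 9 members passed over these 8 hearts (permutation test of rho, adjusted p of 0.196 to 0.36). Among the 8 infarcted hearts that share 1 number in their descriptions, all 9 members passed by Pearson's r, with 0.80 for Fbn1, 0.73 for Fbn2 and 0.83 for Fbln1. By rank Fbln5 and Mfap4 passed (permutation test of rho, adjusted p = 0.0482 each) and the other 7 did not (0.0551 to 0.0694). The hearts left out there are PBS 6 and rHCI 1, and rHCI 1 is the heart with low Eln and high fibrillins: its Eln was 1635 CPM and its Fbn1 620.4 CPM. The r of the fibrillins and of Fbln1 was higher without PBS 6 and rHCI 1 than over all 10 hearts.

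**Figure D5:**
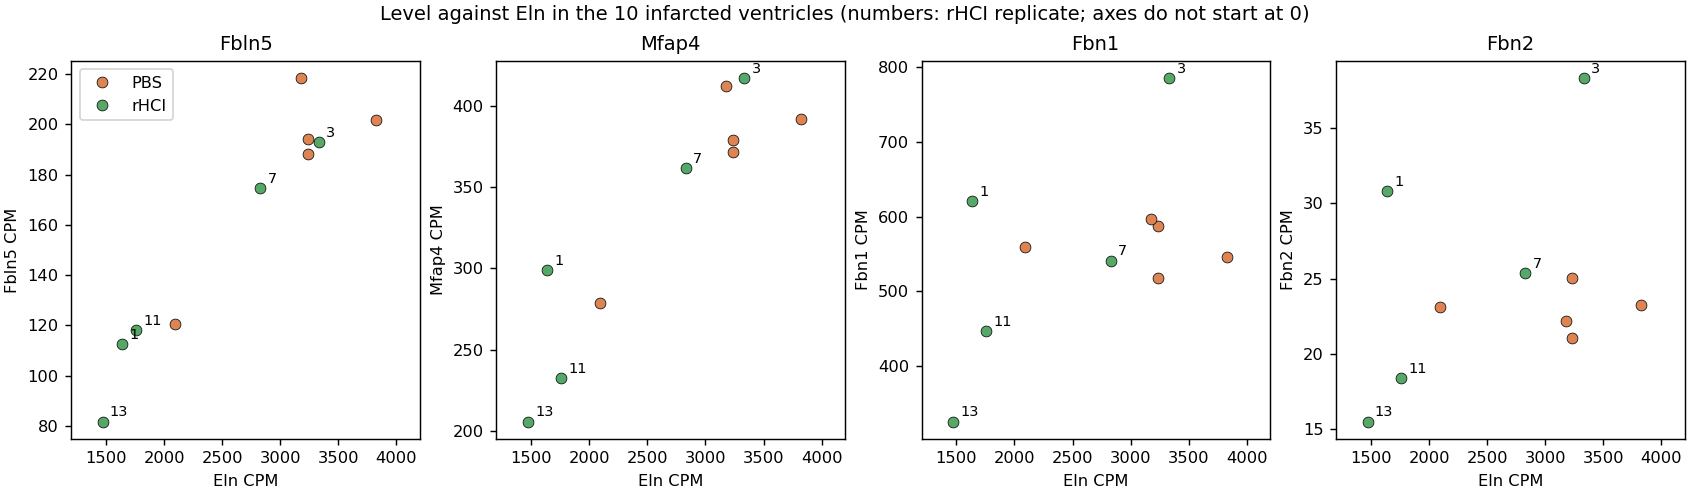
CPM of Fbln5, Mfap4, Fbn1 and Fbn2 against CPM of Eln in the 10 infarcted ventricles, with PBS in orange and rHCI in green numbered by replicate (axes do not start at 0). Fbln5 and Mfap4 rise with Eln (r of 0.96 and 0.92 on the log2 scale), and rHCI 1 stands above the other low-Eln hearts for Fbn1 and Fbn2.

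The enzymes that cross-link elastin rose with it. All 5 lysyl oxidases were higher in PBS hearts, as were 36.5% of all genes tested, and their median log2 fold change was 2.74. Lox went from 7.22 ± 0.982 CPM in sham to 384 ± 94.9 CPM in PBS hearts, a log2 fold change of 5.73 ± 0.19 (adjusted p = 2.01e-10). Loxl3 rose by 3.8 ± 0.13 and Loxl1, the family member tied to elastic fibre upkeep, by 2.74 ± 0.10, from 48.1 ± 5.33 CPM in sham to 321 ± 39.2 CPM in PBS hearts. All 5 were also higher in rHCI hearts, with Lox at 5.42 ± 0.27.

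The latent TGF-beta binding proteins, which resemble fibrillins and lie on microfibrils, were split. Ltbp2, which binds fibrillin-1 and fibulin-5 and not latent TGF-beta, rose from 4.05 ± 1.49 CPM in sham to 281 ± 39.9 CPM in PBS hearts (log2 fold change 6.13 ± 0.21), a larger value than that of Eln. Ltbp3 rose by 1.99 ± 0.08 and Ltbp4, a partner of fibulin-5 in elastin assembly, by 1.08 ± 0.06. Ltbp1 fell by 0.19 on the log2 scale, a call that was lost with library totals alone, where it was 0.08 higher. In rHCI hearts 3 of the 4 were higher and 0 lower, where 34.1% of all genes tested were higher and 29.7% lower.

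Of the other fibulins and hemicentins, 2 of 4 rose and 1 fell, where 36.5% of all genes tested rose and 34.9% fell. Fbln7 rose from 0.635 to 5.32 CPM (log2 fold change 3.09 ± 0.14). Efemp1, which encodes fibulin-3 and is the closest relative of Efemp2, rose by 0.60 ± 0.11, from 6.13 to 9.36 CPM. Hmcn1 fell by 0.56, and Hmcn2 did not pass (−0.24 ± 0.15). Among emilins and multimerins 4 of 5 rose and 0 fell. Emilin1, a glycoprotein at the elastin surface, rose by 2.00 ± 0.09, Mmrn1 by 0.81 ± 0.10 and Mmrn2 by 0.49 ± 0.05, while Emilin2 was at −0.10 ± 0.08 (adjusted p = 0.246).

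Other microfibril-associated proteins rose in 4 of 7 and fell in 3, against the same shares of all genes. Biglycan (Bgn, 2.93 ± 0.12), versican (Vcan, 1.85 ± 0.10) and decorin (Dcn, 1.08 ± 0.05), proteoglycans that bind elastin or fibrillin, were among those that rose. The 3 that fell were Mfap1a, Mfap1b and Mfap3l (−0.50, −0.40 and −0.46), of which Mfap1a and Mfap1b encode a splicing factor of the nucleus in spite of the name. With library totals alone the calls of Mfap1b and Mfap3l were lost. Of 7 fibrillin-binding ADAMTS and ADAMTS-like proteins 5 rose and 2 fell. Adamts17 (2.76 ± 0.18), Adamtsl2 (2.24 ± 0.15) and Adamts10 (1.92 ± 0.09) had the largest rises of the list. Adamtsl4 and Adamtsl5 were at −0.11 and −0.13, and with library totals alone both were higher, by 0.16 and 0.15.

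Enzymes that can cut elastin also rose: 8 of the 8 tested, of 11 listed, where 36.5% of all genes tested rose and 34.9% fell. Mmp12, the macrophage elastase, went from 0.233 ± 0.116 CPM in sham to 37.1 ± 9.54 CPM in PBS hearts, a log2 fold change of 7.38 ± 0.29 (adjusted p = 4.12e-10). The cathepsins S and K followed with 3.24 ± 0.16 for Ctss and 3.13 ± 0.12 for Ctsk. Of 11 receptors of elastin and fibulins 10 rose and 0 fell, against the same shares of all genes. Lgals3, which encodes galectin-3, rose by 4.94 ± 0.19, the integrin genes Itgb3 by 1.56 ± 0.13 and Itgb5 by 1.15 ± 0.08, and Neu1 did not pass (0.06 ± 0.04, and 0.34 and called higher with library totals alone). Macrophage markers rose in the same hearts, as given above.

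Growth factors held by microfibrils rose in 6 of 7 tested and fell in 1, of 9 listed, where 36.5% of all genes rose and 34.9% fell. Tgfb3 rose from 20.4 ± 0.947 CPM in sham to 152 ± 19.8 CPM in PBS hearts (log2 fold change 2.89 ± 0.09), Tgfb2 by 2.15 ± 0.15 and Bmp4 by 1.48 ± 0.10. Bmp7 fell by 0.39, a call that was lost with library totals alone. In rHCI against sham hearts, the counts of rises in these 9 lists were 5 of 5 lysyl oxidases, 3 of 4 latent TGF-beta binding proteins, 2 of 4 other fibulins, 4 of 5 emilins and multimerins, 4 of 7 other microfibril proteins, 5 of 7 ADAMTS and ADAMTS-like proteins, 7 of 7 elastin-degrading enzymes, 9 of 11 receptors and 6 of 7 growth factors. Of all genes tested in rHCI against sham hearts 34.1% rose and 29.7% fell. Between rHCI and PBS hearts 0 genes of the 9 lists passed, where 0% of all genes did.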

How the data were processed

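The values are raw counts per gene that the authors deposited for 15 libraries in 1 table, as whole numbers with no normalization, and the table held 0 columns without a matched sample. Per the labels' protocols, RNA came from ground left ventricle and libraries were stranded mRNA-seq. Tools named in the submitters' processing notes are STAR, Trimmomatic, Cufflinks and edgeR, and builds GRCm38 and mm10, with neither role nor version. For the counter, its strand setting and the annotation nothing was found (not given in the sources used here), so reads of overlapping genes cannot be told apart. Groups came from the sample titles. The labels do not tie each library to an animal, and should some share one, the p-values reflect no more than the spread of libraries, which may be technical. The 30 replicate pairs within groups differed by more than sampling noise (lowest chi-square per degree of freedom 10.7, genes of at least 50 counts), and each library was counted as 1 sample.

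Each pair of groups was tested on all genes with edgeR 4.0.16 in R 4.3.3 (TMM factors, filterByExpr, quasi-likelihood F test, Benjamini-Hochberg adjustment, threshold 0.05). All 10 elastic fibre genes passed the filter on low counts in each comparison. CPM used TMM factors over all 15 libraries, and lengths came from GENCODE M21. Ratios had a pseudocount of 0.5 and relations 100000 permutations of log2 CPM with a prior count of 2. In simulated counts of PBS against sham, 90.9% of 2-fold changes were recovered among 16207 genes, and 4.66% of calls were false. For rHCI against PBS 91% were recovered among 16383 genes, and 7.35% of calls were false. The members and all gene lists were chosen with earlier results of these data known. Genes named were all members, up to 3 of each of 9 pathway lists with the largest change and at least 5 CPM, Lox, Loxl1, Ltbp2, Efemp1, Emilin1, Mmp12, Tgfb3, Col1a1 and Col3a1, and the 5 genes most like Eln. Those that fell or did not pass (Ltbp1, Hmcn1, Hmcn2, Emilin2, Mfap1a, Mfap1b, Mfap3l, Adamtsl4, Adamtsl5, Neu1 and Bmp7), Eln's neighbours and the single markers were named with their values already known. Other settings were RLE factors, library totals alone, DESeq2 1.42.0, other low-count filters, all 15 libraries in 1 fit, the number in the descriptions as a covariate or its shared value alone, a pseudocount of 2, the longest transcript as length and each library left out. A fit without both rHCI 1 and rHCI 13 was chosen after seeing the data.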

Additional observations from a re-analysis of the deposited data

How the results depend on the processing

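All 10 elastic fibre genes were called higher in PBS and in rHCI hearts against sham, and 0 of 10 in rHCI against PBS hearts, under every alternative run. No paired analysis was possible because the groups share no replicate numbers. Leaving out 1 library gave 11147 to 11602 genes called in PBS against sham, 9643 to 10606 in rHCI against sham and 0 to 3 in rHCI against PBS hearts (3 without rHCI 13). In the last comparison DESeq2 called 6 genes, and 2 were called without rHCI 1 and rHCI 13 together. With library totals alone the calls against sham split into 8938 higher and 2610 lower in PBS (5921 and 5653 with TMM) and 8011 and 2128 in rHCI hearts (5487 and 4781). In rHCI against PBS hearts, leaving out 1 library gave log2 differences of −0.11 to 0.01 for Fbln1 (above 0 without PBS 2, 0.0020, and without rHCI 11, 0.012), −0.02 to 0.30 for Fbn2 (−0.024 without rHCI 3) and −0.22 to 0.09 for Fbn1 (0.019 without rHCI 11 and 0.093 without rHCI 13), and Fbn1 was at 0.074 without rHCI 1 and rHCI 13. The share of Eln with the longest transcript was 17.99% in sham, 58.6% in PBS and 52.9% in rHCI hearts. Of the 30 ratio tests 14 passed, against 11 to 15 of the 30 with 1 library left out (calls gained included) and 0 among libraries with the shared number, where each group has at most 4 and the smallest exact p is 0.0286. The log2 difference of Fbln1 to Fbln2 in rHCI against sham hearts, 0.01, ranged from −0.039 to 0.057 with 1 library left out (−0.017 without Sham 16, −0.025 without Sham 18, −0.0079 without Sham 19, −0.039 without rHCI 1) and was −0.057 with the shared number. Depth limits a member most where its count is lowest, which was 125 for Mfap2 in Sham 19. The causes of these changes were not tested.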

Other observations

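The gene whose level followed Eln most closely over the 10 infarcted hearts was Tbl2, which encodes a protein of the endoplasmic reticulum. Of 10486 genes with a mean of at least 5 CPM in these hearts, the 5 highest Pearson r with Eln on log2 CPM were those of Tbl2 (0.99), Cxcl16 (0.98), Wisp2 (0.97), Meg3 (0.97) and Cemip (0.97), given as a description. In the same order of all genes Fbln5 was 10th, Mfap4 143rd, Mfap2 229th, Fbln2 721st, Efemp2 810th and Mfap5 1957th, and Fbn1, Fbln1 and Fbn2 were 2745th, 3166th and 3686th. Many genes outside the elastic fibre therefore lay closer to Eln than most of its own partners did.

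Tbl2 also lies near Eln, 402334 bases away on chromosome 5 (135149657 to 135165760, GRCm38). Its level was 14.9 ± 1.10 CPM (SD, n = 5) in sham and 22.9 ± 1.20 CPM in PBS hearts, a log2 fold change of 0.62 ± 0.06. Of 22 genes tested within 500 kb of Eln, 12 were higher and 6 lower in PBS hearts, 4 were not called, and the median log2 fold change was 0.31. Of all genes tested 36.5% were higher and 34.9% lower, with a median of −0.01. Limk1, the nearest of those tested at 13995 bases, went from 6.83 ± 0.829 to 10.5 ± 0.734 CPM (0.62 ± 0.09), and Eif4h was at −0.11. The largest value was that of Cldn3, 3.77, from 0.0400 to 0.587 CPM. None of the 22 came near the log2 fold change of Eln, 5.28.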
